A study of Mus musculus with 9 samples.

Results

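The kinesin superfamily was followed through the newborn mouse cortex after 2 manipulations that raise Hedgehog signalling. Its members were taken as every row whose gene name is Kif or Kifc followed by a number and at most 1 letter. This gave 39 genes of the 22496 in the ShhN IUE table and the same 39 of the 23624 in the SmoM2 table, and all 39 passed the expression filter in both. Bulk RNA of the cortex was sequenced at postnatal day 0 in 3 groups of 3 libraries. The wild-type group was made of littermates with neither manipulation in their labels. ShhN IUE cortex had received ShhN, the amino-terminal fragment of Sonic hedgehog that signals, by in utero electroporation, which reaches only some cells. SmoM2 cortex carried hGFAP-Cre, a Cre driven by a human GFAP promoter, and 1 copy of the conditional allele SmoM2f/+, an always-active form of the Hedgehog transducer Smoothened. Every group was on a mixed background of C57BL/6J, 129S6 and CD1. Electroporation without ShhN was not analysed here, so the surgery and ShhN cannot be told apart. The labels do not tie a library to an animal or litter, so the p-values measure the spread between these libraries.

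Kinesins are motors that burn ATP to move along microtubules or to take them apart. One set works in the dividing cell, where it builds the spindle, moves chromosomes to the cell's equator and cuts the daughter cells apart. A second set carries organelles, vesicles, mRNA and cytoskeletal parts along axons and dendrites, and others serve the cilium, the organelle in which vertebrate Hedgehog signalling takes place. The 39 genes were sorted into 13 mitotic and cytokinetic motors, 15 transport and neuronal motors, and 11 motors of the cilium, of Hedgehog signalling or of other roles. Kif2a, which depolymerises microtubules in neurons as well as at spindle poles, was placed with the transport motors.

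Promoter sequence is printed first because 2 short motifs in it were more frequent among the mitotic than the transport motors. The motif search used no expression value, but the role groups compared were chosen with earlier results of these data known. Many genes that peak late in the cell cycle carry a cell cycle genes homology region (CHR), read by the MuvB complexes, and CCAAT boxes, read by NF-Y. The letters searched were TTTGAA and TTCGAA for the CHR and CCAAT for the box, each on both strands, and matches of the 2 motifs can share at most an end base. RefSeq promoters of build GRCm38.p6, running from 250 bases before the annotated start through 50 bases from it, matched 31 of the 39 genes. Each sequence below spans 120 bases before the start and 30 from it, 5′ to 3′ on the gene's strand, with CHR and CCAAT letters of either strand in capitals. Kif11 (chr19:37376262-37376411, plus strand), Kif22 (chr7:127042391-127042540, minus strand), Kif18b (chr11:102925095-102925244, minus strand) and Kifc1 (chr17:33890604-33890753, minus strand) are shown as mitotic motors with both motifs. Kif18a (chr2:109280618-109280767, plus strand) is the mitotic motor with neither, Kif24 (chr4:41464819-41464968, minus strand) is a ciliary motor with both, and Kif5c (chr2:49619166-49619315, plus strand) is a neuronal transport motor.
Kif11: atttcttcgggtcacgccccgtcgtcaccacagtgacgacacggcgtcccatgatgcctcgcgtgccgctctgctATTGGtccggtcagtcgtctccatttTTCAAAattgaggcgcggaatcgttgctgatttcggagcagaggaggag
Kif22: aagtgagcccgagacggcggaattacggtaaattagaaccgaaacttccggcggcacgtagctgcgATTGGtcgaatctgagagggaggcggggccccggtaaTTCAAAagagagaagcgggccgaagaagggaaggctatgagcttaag
Kif18b: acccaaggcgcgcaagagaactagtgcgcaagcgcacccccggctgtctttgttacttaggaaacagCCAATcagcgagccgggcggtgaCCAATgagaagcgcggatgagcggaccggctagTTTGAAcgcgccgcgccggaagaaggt
Kifc1: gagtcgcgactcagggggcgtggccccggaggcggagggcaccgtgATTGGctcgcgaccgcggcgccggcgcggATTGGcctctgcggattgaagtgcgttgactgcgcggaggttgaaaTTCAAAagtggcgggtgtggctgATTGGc
Kif18a: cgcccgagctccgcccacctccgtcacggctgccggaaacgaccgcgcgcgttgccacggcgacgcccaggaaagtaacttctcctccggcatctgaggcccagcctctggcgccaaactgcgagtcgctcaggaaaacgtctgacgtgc
Kif24: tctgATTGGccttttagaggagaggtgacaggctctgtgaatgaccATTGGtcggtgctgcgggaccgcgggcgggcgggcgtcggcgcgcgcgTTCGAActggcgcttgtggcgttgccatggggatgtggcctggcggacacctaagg
Kif5c: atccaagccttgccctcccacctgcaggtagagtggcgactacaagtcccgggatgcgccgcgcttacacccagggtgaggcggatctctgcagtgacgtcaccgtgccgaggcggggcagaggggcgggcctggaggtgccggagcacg

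The CHR letters stood in 11 of 12 mitotic promoters, against 19.2% of all 32851 promoters in the table. CCAAT stood in 8 of those 12, against 37.4% of all promoters, and both motifs together in 8 of 12, against 7.52%. Among transport motors, the CHR letters stood in 1 of 12 promoters, CCAAT in 2 and both in 0. These 12 promoters belong to 9 genes, and both CCAAT promoters are entries of Kif1b. The 8 kinesins without an entry are Kif5a, Kif5b, Kif13b, Kif21b, Kifc2 and Kifc3 of the transport group, Kif20a and Kif19a. Among ciliary and other motors, 3 of 11 promoters held both motifs, those of Kif24, Kif26b and Kif27, and Kif24 held 4 CCAAT boxes. Spacing was counted from the first base of the nearest upstream CCAAT box to the first base of the CHR, and so includes the box. It was 9 bases in Kif23, 24 in Kif4, 26 in Kif11, 33 in Kif18b, and 46 in both Kifc1 and Kifc5b. For the 2 CHR matches of Kif22 it was 18 and 37. Kif14 had no box upstream of its CHR. Outside the mitotic group the spacing was 48 bases in Kif24, 64 in Kif26b, and 31, 133 and 149 for the 3 CHR matches of Kif27. The entries of Kif2c, Kif4 and Kif14, all with CHR letters, lie wholly inside the deposited span of the gene. So does the Kif1a entry with the CHR letters. A match describes the letters only, and no binding was measured in these libraries.

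**Figure D1:**
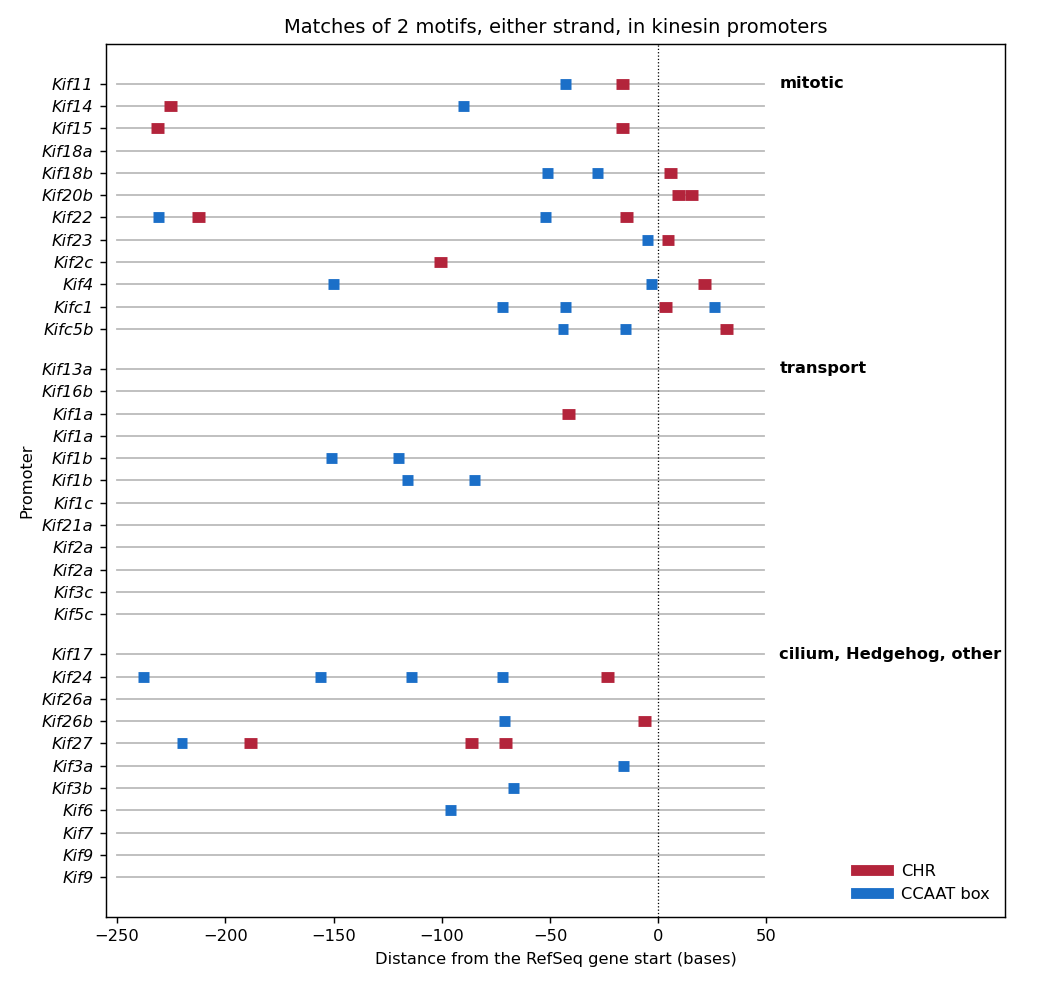
Matches of the CHR and CCAAT letters in each kinesin promoter of RefSeq, by distance in bases from the annotated gene start (dotted line), with 1 grey line per promoter. In the mitotic group 11 of 12 lines carry a CHR match, and in the transport group 1 of 12.

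Libraries held 15376071 to 19604672 counts in ShhN IUE, 23625702 to 26923127 in SmoM2 and 18610507 to 21694348 in wild type, and kinesins took 0.605% to 0.763% of them. Mitotic motors had 42 to 321 counts per wild-type library, transport motors 180 to 23964, and ciliary and other motors 15 to 4603. The same wild-type libraries were counted differently in the 2 tables, so each comparison used its own table. For 32 of the 39 kinesins the summed wild-type counts of the tables lay within 0.1 of each other on the log2 scale. For Kif1a, Kif1b, Kif1c, Kif2a, Kif21b, Kif22 and Kifc1 they did not.

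In wild-type cortex the family was dominated by neuronal transport motors. Per length of transcript, Kif5c, a heavy chain of conventional kinesin, stood highest at 114 to 129 FPKM in the ShhN IUE table. Kif5a, its axonal paralogue, followed at 93.4 to 102 FPKM, with Kif1a, the carrier of synaptic vesicle precursors, at 89.5 to 98.02. In that table the ranges of Kif5a and Kif1a overlapped, and that of Kif5c lay above both. The SmoM2 table counted the same wild-type libraries differently. There Kif1a held 75.9 to 83.9 FPKM, below Kif5a at 93.3 to 102. Kif21b, which also limits microtubule growth, reached 66.1 to 79.4 FPKM (44.6 to 80.9 in the SmoM2 table), and Kif3c, a neuronal partner of Kif3a, 54.8 to 61.5. Next came Kif21a, Kifc2, Kif3a, Kif1b and Kif3b, with mean FPKM between 29.9 and 31.99 and overlapping ranges. In the SmoM2 table Kif1b, at 36.0 to 39.7 FPKM, lay above the ranges of the others. The 18 highest members were all transport, ciliary or other motors, and the 13 mitotic motors came after them, from 2.74 ± 0.745 FPKM for Kif11 to 0.1998 ± 0.0441 for Kif14 (SD, n = 3). Motors of motile cilia closed the order, with Kif19a at 0.184 and Kif6 at 0.148 FPKM. Mitotic motors made up 2.24% to 3.12% of the summed kinesin FPKM in wild type and 5.83% to 7.57% in ShhN IUE. In the SmoM2 table they made up 2.25% to 3.24% in wild type and 5.56% to 7.38% in SmoM2.

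**Figure D2:**
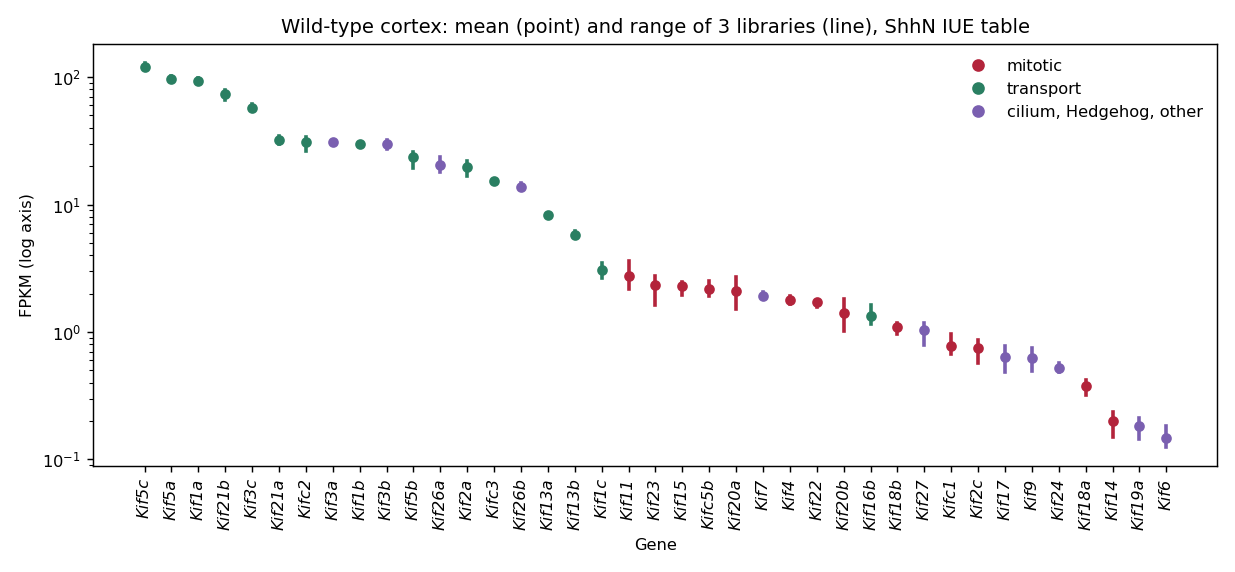
Wild-type FPKM of the 39 kinesins in the ShhN IUE table on a log axis, ordered by mean (points, with lines for the range of 3 libraries) and coloured by role. Transport motors fill the high end, led by Kif5c at 119, and the mitotic motors lie at 2.74 and below.

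In both manipulations all 13 mitotic motors rose, while 7 of 15 transport motors and 3 of 11 ciliary and other motors passed the test in ShhN IUE, and 3 and 1 in SmoM2. Of the transport motors, 4 were higher and 3 lower in ShhN IUE, and 1 was higher and 2 lower in SmoM2. The 3 ciliary and other motors were higher in ShhN IUE, and the 1 in SmoM2 was lower. These role groups were chosen with earlier results of these data known. Kif2a, which also acts at spindle poles, was counted as a transport motor (log2 fold change -0.51 in ShhN IUE and -0.05 in SmoM2). In ShhN IUE, 20 of 39 kinesins were higher than wild type and 3 were lower, where 16.1% of all 16180 genes tested were higher and 17.2% lower. In SmoM2, 14 of 39 were higher and 3 lower, where 9.59% of 16485 genes were higher and 9.29% lower. The threshold is an adjusted p of 0.05, from edgeR's quasi-likelihood test with Benjamini-Hochberg adjustment over all genes of the table. The median log2 fold change of the mitotic motors was 1.42 in ShhN IUE and 1.13 in SmoM2, against -0.00384 and -0.00719 over all genes tested. Both comparisons share the 3 wild-type libraries, so a gene called in both is not 2 independent results. In bulk tissue, fewer or more cells of a type and less or more RNA per cell cannot be told apart.

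**Figure D3:**
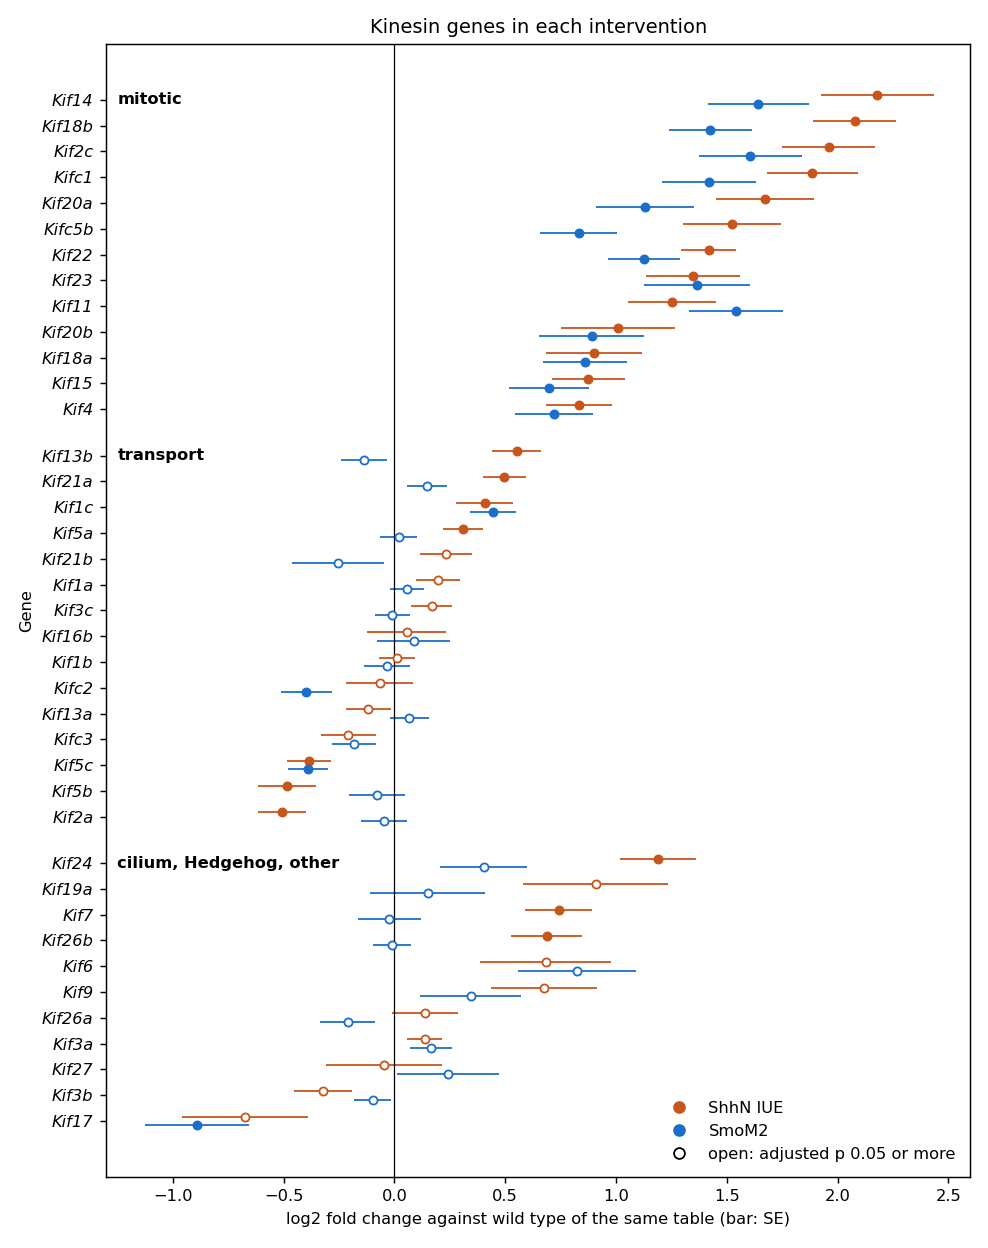
Log2 fold change against wild type of the same table for each kinesin, grouped by role, in ShhN IUE (orange) and SmoM2 (blue), with the SE as bars and filled points for an adjusted p under 0.05. All points of the 13 mitotic motors are filled and lie between 0.70 and 2.18. Kif2a, which also acts at spindle poles, is drawn with the transport motors.

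The motors that separate the spindle poles rose in both manipulations. Kif11, known as Eg5, pushes the poles apart and had the highest mean FPKM of the mitotic motors in wild type and SmoM2, while in ShhN IUE Kif20a (6.83) stood beside it (6.73). Its wild-type libraries held 10.8, 11.8 and 17.6 CPM (counts scaled to a common library size with TMM factors), and its ShhN IUE libraries 29.2, 31.6 and 34.9 (log2 fold change 1.25, SE 0.20, edgeR adjusted p = 0.00327). In the SmoM2 table, Kif11 stood at 10.8, 11.8 and 17.6 CPM in wild type and 31.3, 39.4 and 46.2 in SmoM2 (log2 fold change 1.54, SE 0.21, edgeR adjusted p = 0.00255). Every treated library lay above every wild-type library. Kif15, which can stand in for Eg5 in holding the poles apart, rose from 9.802, 11.6 and 12.03 CPM to 19.3, 18.3 and 23.7 in ShhN IUE (log2 fold change 0.88, SE 0.17, edgeR adjusted p = 0.00638). In SmoM2 libraries Kif15 reached 13.9, 18.1 and 21.1 CPM, over 9.71, 11.3 and 11.8 in wild type (log2 fold change 0.70, SE 0.18, edgeR adjusted p = 0.03).

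Kifc1, the minus-end-directed motor that focuses spindle poles, went from 4.98, 4.86 and 7.14 CPM in wild type to 19.5, 19.7 and 23.6 in ShhN IUE (log2 fold change 1.89, SE 0.21, edgeR adjusted p = 9.90e-04). Its SmoM2 libraries held 17.7, 14.9 and 19.7 CPM against 4.85, 6.55 and 8.15 (log2 fold change 1.42, SE 0.21, edgeR adjusted p = 0.00357). Kifc5b, a close copy of Kifc1, rose from 5.24, 5.36 and 6.76 CPM to 14.997, 13.8 and 21.2 in ShhN IUE, a 2.88-fold change, and from 5.22, 5.37 and 6.73 to 9.43, 10.3 and 11.1 in SmoM2, a 1.78-fold change (edgeR adjusted p = 0.0024 and 0.0133). The 2 copies share 53.2% and 49.9% of their runs of 31 bases, so how reads were split between them is uncertain, and Kifc1 is among the genes whose wild-type counts differ between tables.

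Motors that depolymerise microtubule ends or align chromosomes rose as well. Kif2c, also called MCAK, frees wrongly attached kinetochore microtubules. It stood at 3.68, 4.86 and 5.49 CPM in wild type and 15.9, 18.1 and 20.7 in ShhN IUE (log2 fold change 1.96, SE 0.21, edgeR adjusted p = 9.84e-04). In SmoM2 it was 13.1, 13.5 and 19.1 CPM against 3.72, 5.37 and 5.91 (log2 fold change 1.61, SE 0.23, edgeR adjusted p = 0.00317). Kif18b, which works with MCAK on astral microtubules, rose 4.22-fold in ShhN IUE. Its 3.73, 4.13 and 4.45 CPM in wild type became 15.3, 16.8 and 20.04 (log2 fold change 2.08, SE 0.19, edgeR adjusted p = 6.72e-04). SmoM2 libraries gave 10.02, 9.87 and 13.2 CPM for Kif18b, over 3.72, 4.14 and 4.43 (log2 fold change 1.43, SE 0.19, edgeR adjusted p = 0.00216).

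Kif18a, which damps chromosome oscillations at the equator, moved from 3.94, 4.95 and 4.83 CPM to 6.96, 9.32 and 9.39 in ShhN IUE (log2 fold change 0.90, SE 0.22, edgeR adjusted p = 0.016). It reached 7.19, 8.94 and 8.47 CPM in SmoM2, over 3.72, 5.005 and 4.81 (log2 fold change 0.86, SE 0.19, edgeR adjusted p = 0.0177). The 2 chromokinesins, which bind chromosome arms, are Kif22 and Kif4. Kif22 rose from 11.4, 12.1 and 12.8 CPM to 30.5, 34.2 and 32.5 in ShhN IUE (log2 fold change 1.42, SE 0.12, edgeR adjusted p = 5.85e-04), with the smallest SE of the mitotic motors in that comparison. In SmoM2, Kif22 stood at 21.7, 22.2 and 27.95 CPM over 9.66, 10.5 and 12.8 (log2 fold change 1.13, SE 0.16, edgeR adjusted p = 0.0031). Kif4, which also shapes the central spindle, had the smallest ShhN IUE change of the 13, from 11.3, 9.27 and 10.8 CPM to 19.1, 18.2 and 18.6 (log2 fold change 0.83, SE 0.15, edgeR adjusted p = 0.00516). Its SmoM2 libraries held 14.02, 16.5 and 20.7 CPM against 11.1, 9.28 and 10.7 (log2 fold change 0.72, SE 0.18, edgeR adjusted p = 0.025). Of the bases in Kif4 exons, 15.1% also lie in exons of Pdzd11 on the other strand, and the sources do not say whether counting used strand.

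The motors of the midzone and of cytokinesis included the largest change of the family. Kif14, which recruits citron kinase to the midbody, stood at 2.18, 2.91 and 3.35 CPM in wild type and 11.6, 10.7 and 16.03 in ShhN IUE, a 4.53-fold rise (log2 fold change 2.18, SE 0.26, edgeR adjusted p = 0.00122). In SmoM2 it reached 7.41, 8.64 and 10.4 CPM over 2.17, 2.96 and 3.34 (log2 fold change 1.64, SE 0.23, edgeR adjusted p = 0.00268). Kif20a, which carries Aurora B to the midzone, rose from 5.96, 7.59 and 10.5 CPM to 25.3, 22.6 and 28.7 in ShhN IUE (log2 fold change 1.67, SE 0.22, edgeR adjusted p = 0.00171), and 29.3% of its exonic bases are shared with Cdc23 on the other strand. SmoM2 libraries held 15.1, 17.3 and 19.98 CPM of Kif20a against 5.94, 7.55 and 10.4 (log2 fold change 1.13, SE 0.22, edgeR adjusted p = 0.0105).

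Kif20b, a relative that acts in abscission and is needed for cerebral growth, went from 8.09, 5.59 and 10.3 CPM to 14.6, 14.01 and 19.7 in ShhN IUE (log2 fold change 1.01, SE 0.26, edgeR adjusted p = 0.0189). Its SmoM2 values of 12.1, 15.4 and 16.8 CPM lay over wild-type values of 8.06, 5.596 and 10.3 (log2 fold change 0.89, SE 0.24, edgeR adjusted p = 0.0341), the highest adjusted p of the 13 in SmoM2. Kif23, the motor subunit of centralspindlin, rose from 5.81, 9.31 and 8.95 CPM to 19.5, 19.1 and 22.9 in ShhN IUE (log2 fold change 1.35, SE 0.21, edgeR adjusted p = 0.00313). It stood at 15.6, 20.8 and 25.5 CPM in SmoM2, over 5.78, 9.28 and 8.92 (log2 fold change 1.37, SE 0.24, edgeR adjusted p = 0.00668). For all 13 mitotic motors in both tables, the lowest treated library lay above the highest wild-type library, as it did for 24.5% of all genes tested in ShhN IUE and 20.4% in SmoM2.

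The rises in ShhN IUE held in all 13 genes whichever single library was left out. In SmoM2 the count was 12, 8 and 7 of 13 without the first, the second and the third SmoM2 library, and 11, 10 and 13 without the first, the second and the third wild-type library. The third library was the highest of its group for 10 of 13 mitotic motors in wild type, 11 in ShhN IUE and 12 in SmoM2. Markers of dividing cells rose beside them in 6 of 6 genes in each comparison, Mki67 by 1.74 and 1.56 on the log2 scale. Their summed level was 113 to 145 CPM in wild type and 353 to 427 in ShhN IUE. In the SmoM2 table it was 112 to 144 in wild type and 293 to 419 in SmoM2, and no marker was at 0 in either table. Radial glia markers rose in 5 of 6 genes in ShhN IUE and 4 of 6 in SmoM2, with summed levels of 449 to 673 CPM in wild type, 872 to 1028 in ShhN IUE and 700.1 to 818 in SmoM2. Oligodendrocyte lineage markers rose in 3 of 4 genes in ShhN IUE and 4 of 4 in SmoM2, from 224 to 251 CPM in wild type to 331 to 387 and 391 to 449, with none at 0. Blood markers rose in 2 of 4 genes and microglia markers in 1 of 4 in SmoM2, and the summed levels of blood, microglia and endothelium markers overlapped wild type in both comparisons. The part of cell numbers in the rise of the mitotic motors was not tested.

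**Figure D4:**
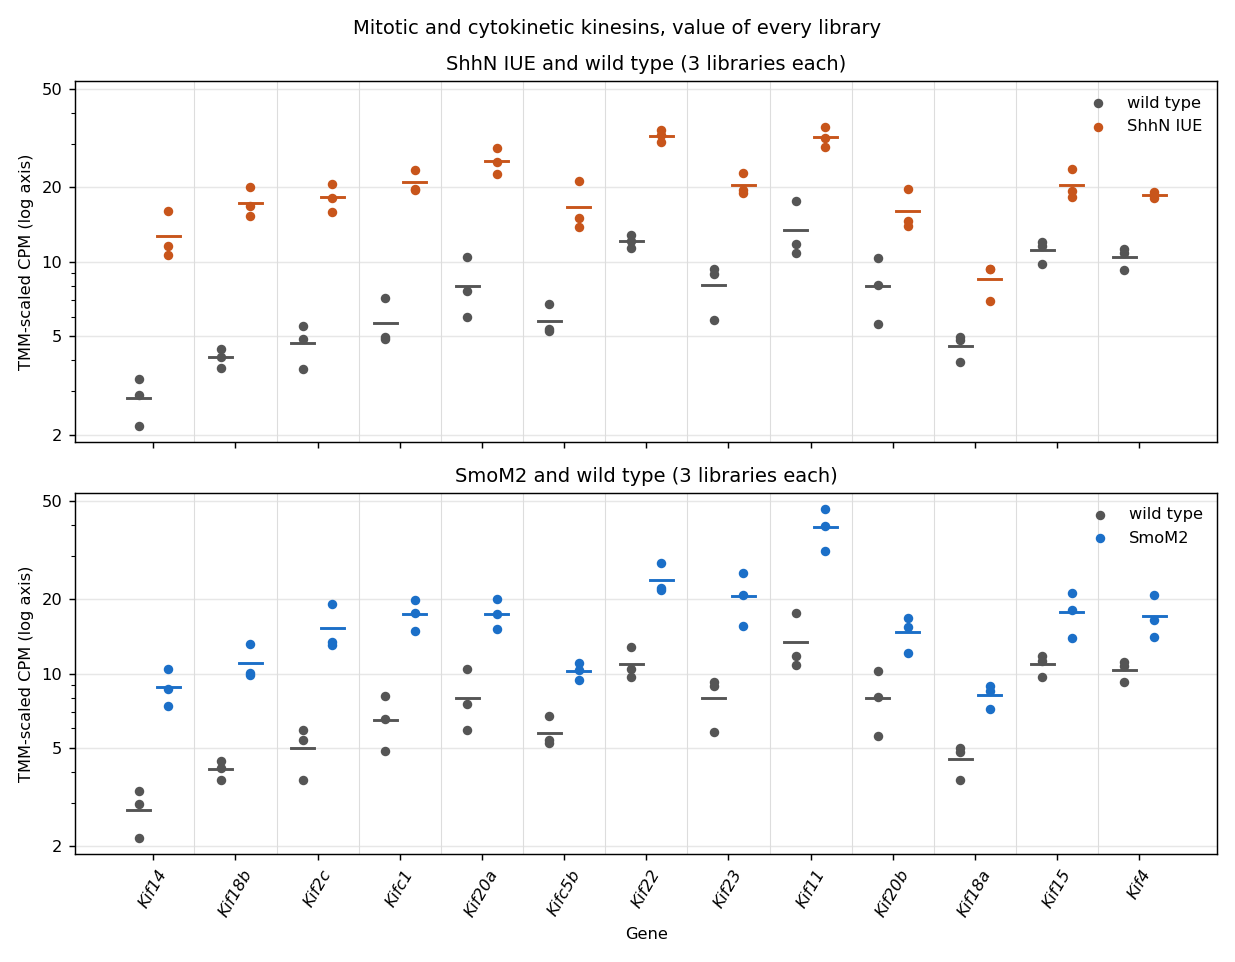
TMM-scaled CPM (log axis) of the 13 mitotic motors in every library, with wild type in grey, the manipulated group in colour and short lines at the means, for ShhN IUE (top) and SmoM2 (bottom). No coloured point overlaps a grey point of the same gene.

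The genes that work with these motors rose with them. Of 16 spindle and midzone partners, 15 were higher in ShhN IUE and 15 in SmoM2, and Cit, which encodes the citron kinase that Kif14 recruits, was the exception in both. Tpx2, which targets Eg5 to spindle microtubules, rose 3.09-fold in ShhN IUE and 2.86-fold in SmoM2. Prc1, the bundler of midzone microtubules, rose 2.81-fold and 2.62-fold, and Racgap1, the partner of Kif23 in centralspindlin, 2.25-fold and 1.995-fold. Cit itself had log2 fold changes of 0.24 and -0.01 (edgeR adjusted p = 0.308 and 0.984). Cenpe, a kinetochore kinesin with another kind of name, rose 3.32-fold and 2.72-fold.

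The 3 heavy chains of conventional kinesin, which carry cargo from the cell body, did not move together. Kif5c fell in both manipulations: its wild-type libraries held 1071, 898 and 948 CPM and its ShhN IUE libraries 777, 754 and 704 (log2 fold change -0.38, SE 0.10, edgeR adjusted p = 0.0199). In SmoM2 it stood at 733, 779 and 742 CPM against 1093, 908 and 953 (log2 fold change -0.39, SE 0.09, edgeR adjusted p = 0.0222). No library of either manipulated group reached the lowest wild-type library. Kif5b, the widely expressed heavy chain, fell in ShhN IUE from 189, 239 and 248 CPM to 156, 181 and 145 (log2 fold change -0.48, SE 0.13, edgeR adjusted p = 0.025), with 209, 244 and 193 CPM in SmoM2 against 195, 232 and 256 and overlapping groups there (log2 fold change -0.08). Kif5a rose in ShhN IUE from 669, 594 and 603 CPM to 801, 748 and 764 (log2 fold change 0.31, SE 0.09, edgeR adjusted p = 0.0298). In SmoM2, Kif5a libraries held 599.8, 654 and 628 CPM and overlapped wild type at 666, 591 and 599.9 (log2 fold change 0.02).

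These calls did not hold in every fit without 1 library. Kif5c lost its call in ShhN IUE when the first wild-type library or the first or the third ShhN IUE library was left out, and in SmoM2 when any 1 SmoM2 library was left out (edgeR adjusted p up to 0.0563 and 0.0998 over all alternatives). Kif5b lost it without the second or the third wild-type or the first or the third ShhN IUE library (up to 0.0903), and Kif5a without the second or the third wild-type or the first ShhN IUE library (up to 0.112).

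Of the other transport motors, Kif13b, Kif21a and Kif1c rose in ShhN IUE and Kif2a fell. Kif13b, which moves phosphoinositide-rich vesicles, went from 32.5, 30.9 and 35.5 CPM to 51.3, 47.6 and 45.8 (log2 fold change 0.55, SE 0.11, edgeR adjusted p = 0.00826), and held 27.5, 30.5 and 31.6 CPM in SmoM2 against 32.3, 30.9 and 35.3 (log2 fold change -0.14). Kif21a, which restrains microtubule growth and is mutated in congenital fibrosis of the eye muscles, rose from 213, 190.2 and 229 CPM to 303, 284 and 304 (log2 fold change 0.50, SE 0.10, edgeR adjusted p = 0.00724), with 221, 239 and 237 CPM in SmoM2 against 212, 190.4 and 228 (log2 fold change 0.15). The ShhN IUE libraries of both genes lay apart from wild type, and their SmoM2 libraries overlapped it. Kif2a, the depolymeriser that limits axon branching, fell from 162, 183 and 206 CPM to 132, 133 and 124 in ShhN IUE (log2 fold change -0.51, SE 0.11, edgeR adjusted p = 0.0099). In SmoM2 it stood at 138, 159.9 and 146 CPM against 139, 149 and 171 (log2 fold change -0.05), and 19.2% of its exonic bases are shared with Dimt1 on the other strand.

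Kif1c, a carrier of dense-core vesicles and integrins, was the transport motor called higher in both manipulations. It rose from 34.4, 43.1 and 39.4 CPM to 48.4, 49.6 and 57.2 in ShhN IUE (log2 fold change 0.41, SE 0.13, edgeR adjusted p = 0.0418), a call that was lost whichever single library was left out, and without a filter (edgeR adjusted p up to 0.111 over all alternatives). SmoM2 libraries gave 52.2, 44.5 and 48.7 CPM for Kif1c against 32.6, 37.4 and 36.8 (log2 fold change 0.45, SE 0.10, edgeR adjusted p = 0.0214), a call lost without the first or the third SmoM2 library. Kifc2, a minus-end motor of neurites, fell in SmoM2 from 111, 102 and 84.03 CPM to 73.5, 76.3 and 75.7 (log2 fold change -0.40, SE 0.11, edgeR adjusted p = 0.0436), a call lost without a filter, and among fits without 1 library kept only without the third wild-type one. Its ShhN IUE values of 103, 77.7 and 104 CPM overlapped wild type at 112, 101 and 84.4.

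The remaining 7 transport motors passed the test in neither comparison: Kif1a, Kif1b, Kif3c, Kif13a, Kif16b, Kif21b and Kifc3. Their log2 fold changes ran from -0.21 (Kifc3) to 0.23 (Kif21b) in ShhN IUE and from -0.26 (Kif21b) to 0.09 (Kif16b) in SmoM2. Kif1a held 1243, 1079 and 1114 CPM in wild type and 1399, 1326 and 1212 in ShhN IUE, and 1011, 1064 and 1039 in SmoM2 against 956, 1006 and 1033. Kif1b, which carries mitochondria and synaptic vesicle precursors, held 765, 726 and 778 CPM in wild type and 749, 749 and 791 in ShhN IUE, and 810.3, 1034 and 976 in SmoM2 against 926, 956 and 1006. Kif3c held 394, 370.1 and 431 CPM in wild type and 453, 463 and 426 in ShhN IUE, and 401, 389.9 and 393 in SmoM2 against 392, 371 and 429. The groups of these 3 neuronal carriers overlapped in both comparisons. Kif13a, a carrier of endosomes and receptors, held 59.7, 58.3 and 55.1 CPM in wild type and 52.4, 55.1 and 52.1 in ShhN IUE, and 60.1, 58.3 and 62.3 in SmoM2 against 59.4, 58.3 and 54.9. Kif16b, a motor of early endosomes, held 9.54, 12.8 and 9.998 CPM in wild type and 10.98, 11.1 and 11.6 in ShhN IUE, and 11.5, 11.5 and 11.2 in SmoM2 against 9.29, 12.9 and 9.96. Kifc3, a minus-end motor of cell junctions, held 62.03, 60.8 and 59.3 CPM in wild type and 55.4, 57.6 and 44.8 in ShhN IUE, and 57.6, 47.8 and 54.7 in SmoM2 against 61.6, 60.8 and 59.03. Of these 3, Kif13a and Kif16b overlapped wild type, and Kifc3 lay below it in both comparisons without passing the test (edgeR adjusted p = 0.233 and 0.242). Kif21b changed sign between the comparisons, and its wild-type values depended on the table. They were 1150.1, 906 and 1094 CPM in the ShhN IUE table and 1163, 610.2 and 731 in the SmoM2 table, where the first library stood far above the other 2. Its ShhN IUE libraries held 1331, 1251 and 1125 CPM and its SmoM2 libraries 687, 710.5 and 701, overlapping wild type in both. Kif21b lies at chr1:136131389-136177998 in the deposited coordinates, 288.3 kb from Kif14 at chr1:136466343-136531511.

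**Figure D5:**
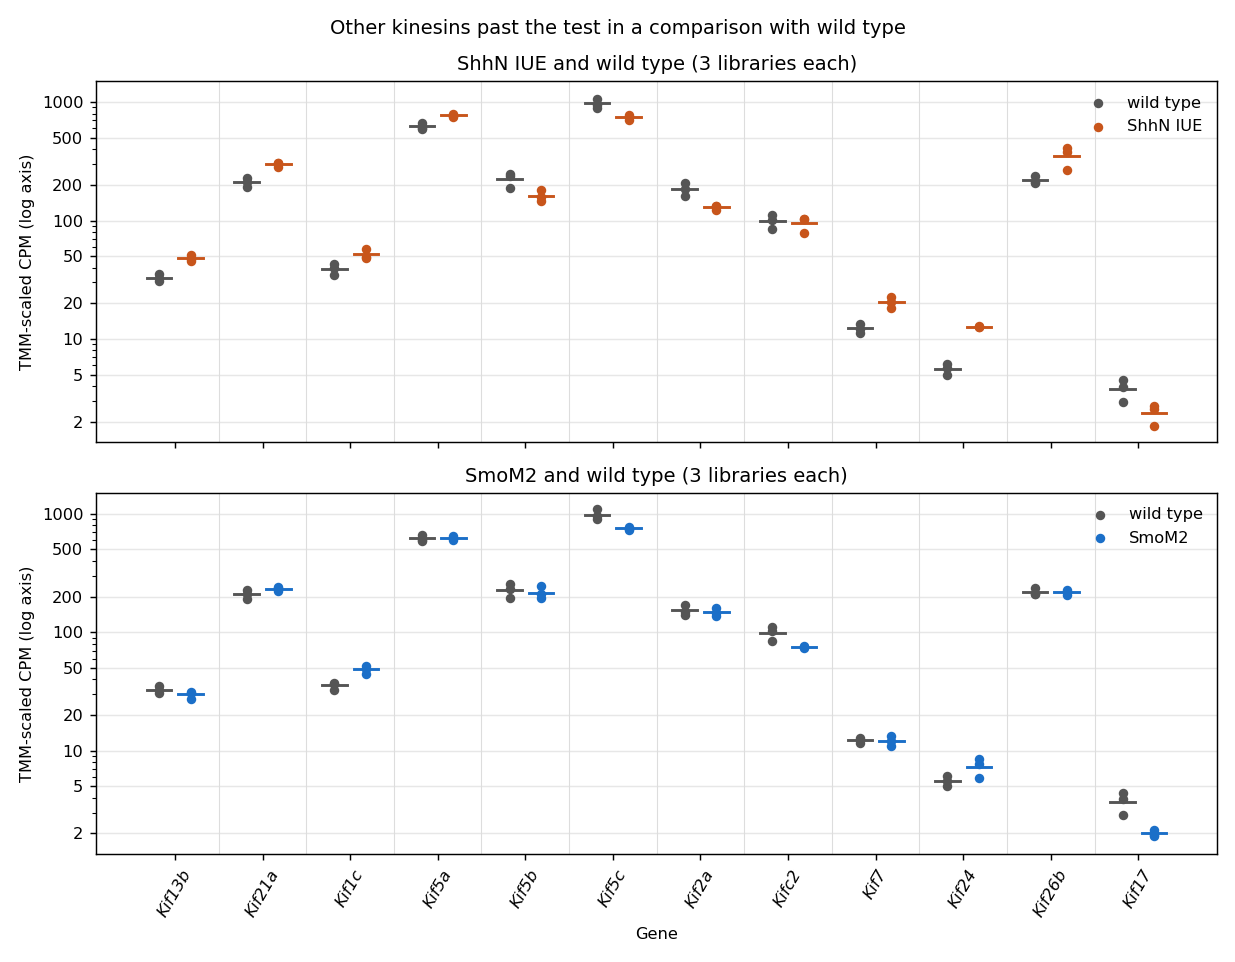
TMM-scaled CPM (log axis) in every library for the 8 transport motors and the 4 ciliary or other motors that passed the test against wild type in at least 1 manipulation, with short lines at the means. Kif5c lies below wild type in both panels, and Kif7, Kif24 and Kif26b lie above it in the ShhN IUE panel.

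Among cargo adaptors, dynein and tubulin genes the shares that passed were closer to those of all genes. Of 17 light chains and adaptors, 3 were higher and 4 lower in ShhN IUE, where 16.1% of all genes were higher and 17.2% lower, so the count is near the background. In SmoM2, 2 were higher and 2 lower, where 9.59% and 9.29% of all genes were. Klc4, a light chain of conventional kinesin, rose 2.63-fold in ShhN IUE and 1.73-fold in SmoM2 (edgeR adjusted p = 7.98e-04 and 0.00158), while Klc1 and Klc2 passed in neither. Stard9, itself a kinesin that the naming rule leaves out, rose 1.52-fold and 1.68-fold. In ShhN IUE the mitochondrial adaptor genes Rhot1 (-0.63 on the log2 scale) and Trak2 (-0.51) fell, as did Kifap3 (-0.48), the non-motor subunit of the Kif3 complex, and Bicd1 (-0.41). In SmoM2, Trak1 (-0.47) and Dlg4 (-0.41) fell.

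Of 9 dynein genes, which drive transport the other way, 2 were higher and 2 lower in ShhN IUE, also near those background shares. In SmoM2, 0 passed by edgeR's quasi-likelihood test, and 0 had an unadjusted p under 0.05. Ndel1 fell by 0.46 and Dync1i2 by 0.31 in ShhN IUE on the log2 scale, and Dctn2 and Dync1h1 rose by 0.37 and 0.33. The lowest log2 fold change of the 9 was -1.10 in ShhN IUE and -0.61 in SmoM2, neither past the threshold. Of 9 tubulins and stabilisers, Tubb2b, Tubb3 and Tubb5 were higher in ShhN IUE, by 0.81, 0.44 and 0.33, and Tubb2a and Dcx were lower. In SmoM2 only Tubb2a passed, with a log2 fold change of -0.66. Neuronal markers were higher in 1 and lower in 2 of 6 genes in ShhN IUE and lower in 1 of 6 in SmoM2. Their summed levels overlapped, at 4804 to 6237 CPM in wild type and 5566 to 6523 in ShhN IUE. In the SmoM2 table they also overlapped, at 4904 to 5718 in wild type and 5005 to 5542 in SmoM2. Striatal projection neuron markers fell in 6 of 6 genes in both, from 123 to 147 CPM in wild type to 37.6 to 49.1 in ShhN IUE and 25.7 to 33.4 in SmoM2. No marker of either neuronal list was at 0, and the part of neuron numbers in the transport motors' values was not tested.

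Among motors of the cilium and of Hedgehog signalling, Kif7 and Kif24 rose in ShhN IUE and did not pass the test in SmoM2. Kif7 patrols the tip of the primary cilium and controls Gli processing. Its wild-type libraries held 12.2, 11.2 and 13.4 CPM and its ShhN IUE libraries 18.3, 20.7 and 22.6 (log2 fold change 0.74, SE 0.15, edgeR adjusted p = 0.00843). In SmoM2, Kif7 stood at 12.1, 10.9 and 13.3 CPM against 12.3, 11.7 and 12.9 (log2 fold change -0.02), and 19.1% of its exonic bases are shared with 9330171B17Rik on the other strand. Kif24, which trims ciliary microtubules and blocks the building of a cilium in cycling cells, rose from 5.65, 4.998 and 6.098 CPM to 12.7, 12.8 and 12.6 in ShhN IUE (log2 fold change 1.19, SE 0.17, edgeR adjusted p = 0.00231). Its SmoM2 values of 5.87, 7.71 and 8.44 CPM overlapped those of wild type at 5.53, 5.005 and 6.13 (log2 fold change 0.40, edgeR adjusted p = 0.191). Kif24 is also the ciliary motor printed above with the CHR and CCAAT letters.

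Kif3a and Kif3b, the pair that drives intraflagellar transport, passed the test in neither comparison. Kif3a held 151, 151 and 156 CPM in wild type and 168, 164 and 171 in ShhN IUE, and 179, 193 and 165 in SmoM2 against 146, 164 and 169 in the wild type of that table. Kif3b held 159.7, 168 and 185 CPM in wild type and 140.0, 157 and 113 in ShhN IUE, and 155, 163 and 159.8 in SmoM2 against 159, 169 and 184. In ShhN IUE all Kif3a libraries lay above and all Kif3b libraries below wild type without passing the test (edgeR adjusted p = 0.222 and 0.095), and in SmoM2 both overlapped it. Kif17, the homodimeric relative that carries NMDA receptor subunits, fell in SmoM2 from 3.92, 4.37 and 2.84 CPM to 1.91, 1.95 and 2.15 (log2 fold change -0.89, SE 0.24, edgeR adjusted p = 0.0329). This motor averaged under 5 CPM, and among fits without 1 library its call held only without the third wild-type one. Its ShhN IUE libraries held 2.69, 1.84 and 2.57 CPM against 3.94, 4.498 and 2.91 (log2 fold change -0.68, edgeR adjusted p = 0.102).

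Kif26b, an atypical kinesin tied to cell adhesion and polarity, rose in ShhN IUE from 238, 209 and 210.2 CPM to 412, 379 and 267 (log2 fold change 0.69, SE 0.16, edgeR adjusted p = 0.0136), with the third ShhN IUE library well below the other 2. The call of Kif26b was lost without the third wild-type or the first ShhN IUE library (up to 0.0515). In SmoM2 it held 205, 225 and 220.3 CPM against 237, 209 and 209 (log2 fold change -0.01). Its relative Kif26a held 176, 129 and 144 CPM in wild type and 173, 139 and 181 in ShhN IUE, and 125, 122 and 138 in SmoM2 against 175, 128 and 143. Kif26a had log2 fold changes of 0.14 and -0.21, and neither passed.

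The motors linked to motile cilia, Kif6, Kif9, Kif19a and Kif27, passed in neither comparison and had low counts. Kif6 stood at 0.934, 0.954 and 1.32 CPM in wild type, 1.68, 1.84 and 1.63 in ShhN IUE and 1.76, 2.16 and 1.84 in SmoM2 against 0.981, 0.9099 and 1.37, with both manipulated groups above wild type (edgeR adjusted p = 0.111 and 0.065). Kif9 had log2 fold changes of 0.67 and 0.34, Kif19a of 0.91 and 0.15, and Kif27 of -0.04 and 0.24. All ShhN IUE libraries of Kif9 and Kif19a also lay above wild type without passing the test (edgeR adjusted p = 0.0608 and 0.0642). In SmoM2 both genes overlapped wild type. Kif27 held 5.498, 3.45 and 5.27 CPM in wild type, 5.19, 4.69 and 3.88 in ShhN IUE, and 5.101, 6.48 and 5.06 in SmoM2 against 5.37, 3.46 and 5.25, with overlapping groups. Among 6 ependymal and choroid plexus markers, 3 were counted highly enough to test, of which 2 rose in ShhN IUE and 1 in SmoM2. The summed level of the 6 was 4.82 to 12.5 CPM in wild type and 27.2 to 51.1 in ShhN IUE. In the SmoM2 table it was 4.85 to 12.6 in wild type and 15.8 to 20.95 in SmoM2. In the wild-type libraries of the ShhN IUE table Ccdc153 was at 0, and the part of ciliated cells in the values of these motors was not tested. Foxj1, the regulator of motile cilia, rose 6.02-fold and 2.66-fold.

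The manipulations were compared with each other over all 9 libraries for the 32 kinesins whose wild-type counts matched between tables. Of these, 8 were lower in SmoM2 than in ShhN IUE and 0 were higher, where 8.07% of the 12349 genes tested were lower and 8.45% higher. Without adjustment, 14 were lower and 1, Kif5b, was higher at p under 0.05. With DESeq2, 1 was higher. The lower genes were 3 transport motors, 3 ciliary or other motors and 2 mitotic motors. Kif13b differed by -0.70 on the log2 scale (SE 0.10, edgeR adjusted p = 0.00202), Kif21a by -0.36 and Kif5a by -0.31. Kif7 differed by -0.77 (SE 0.13, edgeR adjusted p = 0.00481), Kif24 by -0.81 and Kif26b by -0.72. The mitotic motors Kif18b and Kifc5b differed by -0.67 and -0.71. The other 9 mitotic motors tested had differences from -0.56 (Kif20a) to 0.28 (Kif11), none past the threshold. Kif13b, Kif7, Kif24 and Kif26b kept their calls whichever library was left out, and Kif18b, Kif21a, Kif5a and Kifc5b each lost theirs in 3 to 5 of these fits. Without the first or the second SmoM2 library, 4 kinesins were lower.

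The authors' deposited tables mark 11 kinesins as raised and 0 as reduced in ShhN IUE, and 8 and 0 in SmoM2. In the ShhN IUE table these are Kif24 and the mitotic motors other than Kif4, Kif15 and Kif18a. In the SmoM2 table they are the mitotic motors other than Kif4, Kif15, Kif18a, Kif20b and Kifc5b. The marks do not follow the authors' q-value alone. Every marked kinesin had a log2 fold change here of 1.01 (Kif20b in ShhN IUE) or more. Those unmarked with an authors' q under 0.05 had log2 fold changes of at most 0.90 in size (Kif18a in ShhN IUE). In ShhN IUE, unmarked kinesins with an authors' q under 0.05 included Kif15 (0.00553), Kif4 (0.0075) and Kif26b (0.00222), and Kif2a (0.0193), which fell. In SmoM2 they included Kifc5b (0.00842) and Kif20b (0.01002), and Kif17 (0.0465), which fell. The share of all genes that the authors marked was not counted here.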

How the data were processed

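The authors deposited 2 tables of read counts and FPKM values per gene and library, with q-values of their own comparisons, per the file headers. Builds mm10 and GRCm38.p4 and the tools HISAT2, edgeR and StringTie are named, without versions, in the submitters' processing notes. Strand use and the handling of reads shared by gene copies are not given in the sources used here. The members, gene lists and tests were chosen with earlier results of these data known.

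Counts were tested in R 4.3.3 with edgeR 4.0.16 (TMM scaling, the default filter by group, quasi-likelihood F test, Benjamini-Hochberg adjustment over all genes at 0.05), in each table with its own wild-type columns. SmoM2 was set against ShhN IUE over the genes whose summed wild-type counts, with 5 added, lay within 0.1 on the log2 scale between tables (16195 of 22268), with wild-type counts averaged. FPKM was used for levels between genes. Values in every library are given for members with a mean of at least 5 CPM that passed a test or belong to a role group. Those of Kif6 and Kif17, under 5 CPM, were added after their values were seen. DESeq2 1.42.0, limma 3.58.1 (voom), other scalings and filters and the leaving out of each library were alternatives. On simulated counts with 200 genes changed, edgeR found 44.9% of 2-fold and 91.4% of 4-fold changes for ShhN IUE over 15946 genes. Of its calls, 6.52% were false. For SmoM2 over 16279 genes the shares were 65.7%, 97.9% and 9.20%. Between SmoM2 and ShhN IUE, over 12149 genes, they were 53.6%, 82.8% and 8.84%. Far more genes were called in the data, 2602 higher and 2778 lower in ShhN IUE, so the shares there may differ. Libraries of a group differed beyond sampling noise (chi-square per degree of freedom 17.7 to 36.9). Coordinates of genes are those deposited, and promoters are from RefSeq (GRCm38.p6).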

Additional observations from a re-analysis of the deposited data

Results flagged for a closer look

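For 8 kinesins the change against wild type differed between the manipulations, by edgeR's test of SmoM2 against ShhN IUE over all 9 libraries (log2 difference, SmoM2 minus ShhN IUE). Among transport motors it was -0.70 for Kif13b, -0.36 for Kif21a and -0.31 for Kif5a. Among ciliary and other motors, Kif7 differed by -0.77, Kif24 by -0.81 and Kif26b by -0.72. The mitotic motors Kif18b and Kifc5b differed by -0.67 and -0.71. All 8 were lower in SmoM2 libraries. Groups of 3 libraries are too small for a search for single libraries that stand apart.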

How the results depend on the processing

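No scaling moved the median log2 fold change of all genes by more than 0.1. Of the 48 calls on single kinesins, 29 held in every alternative run, and none of the 48 changed direction. Without each library in turn, kinesins lower in ShhN IUE numbered 1 to 3. In SmoM2, 7 to 18 changed, 7 to 15 were higher and 0 to 3 lower, and 7 to 13 mitotic motors were higher. Between SmoM2 and ShhN IUE, 4 to 11 changed, 4 to 10 were lower and 0 to 1 higher, and DESeq2 called 1 higher. Whether the replicate numbers pair the libraries is not known, and groups of 3 are too small to decide it. Deviations of same-numbered libraries from their group means correlated at 0.28, -0.32 and -0.06 in ShhN IUE, and -0.12, -0.17 and 0.06 in SmoM2. The third library was the highest of its group for most mitotic motors in all 3 groups. With the replicate number as a block, 18 kinesins were higher in ShhN IUE, without Kif1c and Kif5a (edgeR adjusted p = 0.0768 and 0.0595). In SmoM2, 13 were higher, without Kif1c (0.0500071), and 1 was lower, without Kif17 (0.0809) and Kifc2 (0.0681). Between SmoM2 and ShhN IUE the block added Kif20a (0.0454).

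Changes of sign touched uncalled kinesins with small log2 differences, and the cause was not tested. Between SmoM2 and ShhN IUE, Kif23 was -0.00135 with DESeq2, -0.00136 with RLE scaling, -0.023 with upper quartile scaling, -0.025 with voom, -0.030 with the block and -0.00177 at a tolerance of 0.05. Kif5c was -0.00134, -0.0013 and -0.022 in the first 3 of these and -0.00115 in the last. Upper quartile scaling gave -0.014 for Kifc3 and -0.014 for Kif16b. Without a filter, SmoM2 against wild type gave 0.00271 for Kif7, 0.017 for Kif3c and 0.015 for Kif26b. Over fits without 1 library the ranges between SmoM2 and ShhN IUE were Kifc3 -0.10 to 0.085, Kif23 -0.18 to 0.17, Kif20b -0.23 to 0.024, Kif18a -0.19 to 0.016, Kif5c -0.045 to 0.049. For SmoM2 against wild type they were Kif21b -0.44 to 0.061, Kif5b -0.18 to 0.026, Kif2a -0.11 to 0.053, Kif7 -0.082 to 0.059, Kif5a -0.017 to 0.075, Kif3c -0.060 to 0.062, Kif26b -0.045 to 0.053, Kif1b -0.097 to 0.071, Kif16b -0.00531 to 0.24. For ShhN IUE against wild type they were Kif1b -0.016 to 0.037, Kif27 -0.23 to 0.082, Kifc2 -0.17 to 0.069, Kif16b -0.021 to 0.20. Motors with few counts, such as Kif6 and Kif19a at 15 to 51 counts per library, are limited by depth.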

Other observations

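Kif14 and Kif21b are the only members within 1 Mb of each other. In the wild type of the ShhN IUE table Kif14, a cytokinetic motor, stood at 0.1998 FPKM. Kif21b, a neuronal motor, stood at 74.1 FPKM there and at 59.0 in the SmoM2 table. Kif14 rose in both manipulations, and Kif21b passed the test in neither.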
